A study of Mus musculus with 20 samples.

Results

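The enzyme genes described here make serine, pass on its carbon unit in mitochondria, and make proline and asparagine, and were measured by RNA sequencing in mouse kidneys that had lost fumarate hydratase. The 9 members, out of 24421 gene symbols in the count table, were chosen by name. *Phgdh*, *Psat1* and *Psph* encode the serine synthesis pathway, *Shmt2*, *Mthfd2* and *Mthfd1l* mitochondrial one-carbon enzymes, *Aldh18a1* and *Pycr1* proline synthesis, and *Asns* asparagine synthesis. All 9 symbols had a row, and 8 passed the filter on low counts within each day. *Pycr1* did not.

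The libraries came from 4 groups of 5 kidneys. Fh1-/- mice carried floxed *Fh1* alleles (Fh1 fl/fl) and Fh1+/+ littermates carried none. Both genotypes carried R26 Creert2/Creert2, a tamoxifen-inducible Cre recombinase expressed in every tissue from the *Rosa26* locus, on a mixed C57BL/6 and 129/SvJ background, and both received 3 injections of 2 mg tamoxifen at 12 weeks of age, so excision was not limited to the kidney and the controls shared Cre and drug. Kidneys were taken at day 5 or day 10. Mice of both sexes were used without randomization, and some whose treatment was interrupted for health reasons were not collected. The RNA came from a piece of whole kidney, and the labels name no animal or litter, so each p-value speaks only of the spread among these libraries, which may be partly technical.

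Mammalian cells build serine from the glycolytic intermediate 3-phosphoglycerate. PHGDH oxidizes it, PSAT1 moves an amino group onto the product from glutamate, and PSPH removes the phosphate. SHMT2 then splits serine to glycine inside mitochondria and loads the released carbon onto folate, MTHFD2 oxidizes this folate-bound carbon, and MTHFD1L turns it into formate, which leaves for the cytosol. ALDH18A1 and PYCR1 carry out the first and the last step from glutamate to proline in mitochondria. ASNS makes asparagine from aspartate with glutamine as nitrogen donor. These genes are best known as a group for being induced by ATF4, a transcription factor of the integrated stress response that binds C/EBP-ATF composite elements. In the kidney, serine synthesis is known from the proximal tubule.

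The promoters of the members were read from RefSeq (GRCm38.p6), from 250 bases before to 50 after each start, and all 9 members had at least 1 window. Both strands were searched for TGATGNAA, the C/EBP-ATF composite element, and for CACGTG, an E-box. No window held both motifs, so no matches overlapped. TGATGNAA was found in *Asns*, 23 bases before the start, and in *Pycr1*, 103 bases before it, and in no other member. Of 32851 promoters in the table, 3.97% held it, and 4.51% of 27025 genes held it in at least 1 promoter. CACGTG was found in *Aldh18a1* alone, 59 bases before the start, and in 7.15% of all promoters and 8.09% of genes. The windows of *Psat1*, the member with the largest difference at day 10, held neither motif. A match describes these letters only, and elements outside the window were not searched. The windows of *Psat1* (chr19:15925010-15925309, minus strand, the first of its listed windows), *Asns* (chr6:7693160-7693459, minus strand), *Pycr1* (chr11:120643699-120643998, minus strand) and *Aldh18a1* (chr19:40588414-40588713, minus strand) are shown so that the member that moved most can be set beside the 3 that hold a motif. They run 5′ to 3′ along the gene, and capitals mark the motif.
Psat1: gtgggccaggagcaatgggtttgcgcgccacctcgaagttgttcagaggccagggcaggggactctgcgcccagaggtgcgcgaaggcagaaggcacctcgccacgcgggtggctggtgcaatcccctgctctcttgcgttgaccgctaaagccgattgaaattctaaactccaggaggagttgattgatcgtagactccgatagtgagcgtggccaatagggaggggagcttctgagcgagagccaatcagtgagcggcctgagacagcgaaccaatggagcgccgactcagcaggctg
Asns: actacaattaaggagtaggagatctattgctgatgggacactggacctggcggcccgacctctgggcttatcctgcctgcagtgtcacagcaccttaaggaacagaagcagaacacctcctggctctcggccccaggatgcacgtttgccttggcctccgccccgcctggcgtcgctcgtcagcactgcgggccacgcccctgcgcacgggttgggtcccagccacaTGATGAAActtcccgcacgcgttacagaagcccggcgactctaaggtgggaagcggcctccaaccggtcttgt
Pycr1: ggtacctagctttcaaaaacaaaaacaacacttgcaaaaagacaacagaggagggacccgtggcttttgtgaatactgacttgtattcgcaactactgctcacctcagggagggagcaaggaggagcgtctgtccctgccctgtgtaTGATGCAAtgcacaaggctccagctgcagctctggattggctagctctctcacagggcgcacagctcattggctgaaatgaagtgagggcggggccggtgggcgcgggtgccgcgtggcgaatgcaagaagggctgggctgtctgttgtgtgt
Aldh18a1: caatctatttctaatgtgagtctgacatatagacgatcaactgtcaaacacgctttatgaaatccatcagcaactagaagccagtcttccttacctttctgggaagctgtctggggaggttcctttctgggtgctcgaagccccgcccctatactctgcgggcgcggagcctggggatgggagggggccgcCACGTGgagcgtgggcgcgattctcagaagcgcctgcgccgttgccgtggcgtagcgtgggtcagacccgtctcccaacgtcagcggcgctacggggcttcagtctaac

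Levels are given in CPM, counts scaled to library size after TMM normalization over all 20 libraries, whose totals lay between 16654829 and 25001294 counts. In Fh1-/- kidneys at day 10, replicates 1 and 3 stood apart. On the first principal component of log2 CPM, which held 42.7% of the variance, they lay at 124.9 and 128, and the other 18 libraries between -31.4 and 30.2. Their summed level of 5 tubular injury markers was 133300 and 126100 CPM, against 12320 and 13310 CPM in replicates 4 and 5, 2721 CPM in replicate 2 and 818.1 to 2029 CPM in Fh1+/+ kidneys at day 10. Most of each sum was *Spp1*, at 123000 and 114960 CPM in replicates 1 and 3. It was at 12150 and 13162 CPM in replicates 4 and 5 and at 2686 CPM in replicate 2. The summed level of 10 proximal tubule markers in replicates 1 and 3 was 2687 and 2949 CPM. It was 6198 to 10470 CPM in the other Fh1-/- libraries and 9526 to 12570 CPM in the controls. *Slc34a1*, the highest of these markers in each control, was at 368.2 and 503 CPM in replicates 1 and 3. *Slc22a6* did not follow, at 709.7 and 796 CPM there and 483 CPM in replicate 5. Control replicates 2 and 3 were also low in *Cyp7b1*, *Slc22a30* and *Slc7a13* (2.04 and 2.87 CPM in the last, against 549 to 1094 CPM in the other controls). No marker of the proximal tubule list was at 0 throughout a group, as the label kidney requires. In whole-kidney RNA, fewer cells of a type and less RNA per cell cannot be told apart. *Fh1* itself does not check the genotype, since only exons 3 and 4 are removed and the count covers the whole gene. It was at 223.9 to 257.7 CPM in the controls and at 1.04 to 1.77 times their mean in the Fh1-/- libraries at day 10.

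In control kidneys the members differed widely in level per length (CPM per kilobase of exon). At day 10 *Shmt2* was the highest at 77.7 ± 21.9 (SD, n = 5), followed by *Psat1* at 7.16 ± 2.11 and *Psph* at 3.22 ± 0.207. *Asns* was at 2.603 ± 0.44, *Phgdh* at 1.82 ± 1.27, *Mthfd2* at 1.34 ± 0.273, *Aldh18a1* at 1.12 ± 0.2, *Mthfd1l* at 0.47 ± 0.102 and *Pycr1* at 0.107 ± 0.0662 (SD, n = 5 each). Neighbours from *Psph* to *Aldh18a1* in this order overlapped in their ranges over the 5 libraries, whereas *Shmt2*, *Psat1*, *Mthfd1l* and *Pycr1* were each separate from the neighbours they followed or preceded. In Fh1-/- kidneys at day 10 the order changed at the top, with *Psat1* at 79.4 ± 46.9 and *Shmt2* at 60.7 ± 7.49 CPM per kilobase (SD, n = 5), and these ranges overlapped. Exons of *Shmt2* and *Psph* overlap those of *Ndufa4l2* and *Cct6a* on the opposite strand, and the sources used here do not say whether counting was strand-specific. Both levels may hold reads of the partner gene.

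**Figure D1:**
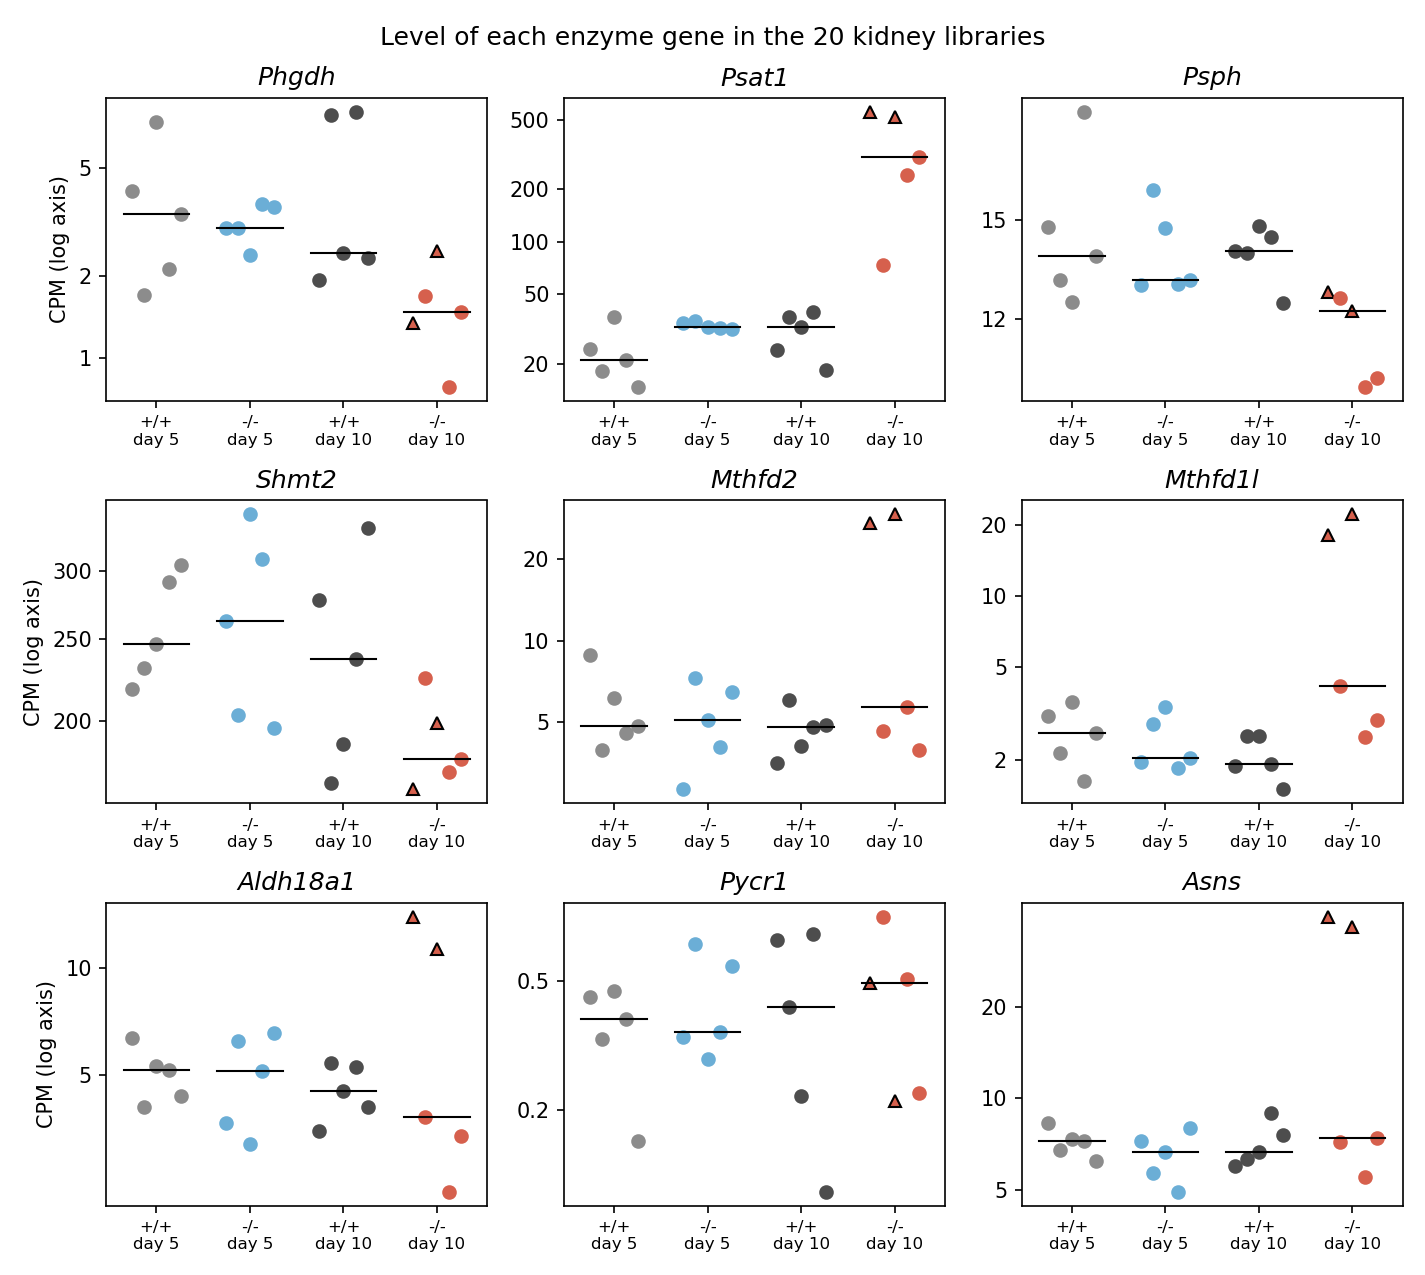
Level of the 9 enzyme genes in each library (CPM, log axis, a separate scale per gene), by genotype and day, with the median of 5 libraries as a bar. Triangles are Fh1-/- day 10 replicates 1 and 3. *Psat1* was above every other library in all 5 Fh1-/- libraries at day 10 (73.7 to 555.3 CPM), whereas among the Fh1-/- day 10 libraries *Mthfd2*, *Aldh18a1* and *Asns* were above every day 10 control in the triangles alone.

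The first question was how the enzymes differed between Fh1-/- and Fh1+/+ kidneys at day 10. *Psat1* was 11.0 times as high (fitted fold) in Fh1-/- kidneys, and the genes around it did not follow. *Phgdh*, which feeds it, was lower by point estimate, and *Psph* and *Shmt2*, which follow it, were close to the controls. *Mthfd2*, *Mthfd1l*, *Asns* and *Aldh18a1* were 2.5 to 10.7 times the control mean in replicates 1 and 3. In replicates 2, 4 and 5, *Mthfd2* and *Asns* were near it (0.772 to 1.22 times). There *Mthfd1l* was at 1.21 to 2.00 times and *Aldh18a1* at 0.52 to 0.84 times. None of the 8 tested members passed the threshold of the study (adjusted p under 0.01 and an absolute log2 fold change over 0.58) with edgeR's quasi-likelihood test, and 0.0279% of 14360 genes tested passed upwards and 0.0279% downwards. At an unadjusted p under 0.05, 4 members were higher and 2 lower, beside 15.1% and 11.9% of all genes. DESeq2 called 2 members up, *Psat1* and *Mthfd1l*, beside 3.26% of the genes it tested upwards and 1.95% downwards. The members' median log2 fold change was 1.01, against -0.0007 over all genes, and it depended on replicates 1 and 3. Without these libraries *Psat1*, *Mthfd1l* and *Mthfd2* were above 0 (2.76, 0.62 and 0.026). *Asns*, *Psph*, *Shmt2*, *Aldh18a1* and *Phgdh* were then below it (-0.084, -0.32, -0.32, -0.52 and -1.77).

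*Psat1* (chromosome 19, 15904678 to 15947337, minus strand, GRCm38) encodes phosphoserine aminotransferase. Its level at day 10 in Fh1-/- replicates 1 to 5 was 555.3, 73.7, 515.4, 240.5 and 304.8 CPM. The 5 Fh1+/+ libraries were at 24.2, 37.2, 32.7, 39.7 and 18.4 CPM. All 5 Fh1-/- libraries were thus above the highest control, as in 4.42% of the genes tested, and the lowest was 2.42 times and the highest 18.2 times the control mean. The log2 fold change was 3.46 (standard error, SE, 0.49, 95% interval 2.37 to 4.55, adjusted p = 0.0143, edgeR's quasi-likelihood test), the rank 25 of all genes by p. This passes 0.05, as 1.88% of genes did upwards, but with this test not the study's 0.01. With DESeq2, the study's test, the log2 fold change was 3.47 and passed the study's threshold (adjusted p = 1.1e-11, DESeq2). Without Fh1-/- replicate 2, the library with the least *Psat1*, it was 3.72 (adjusted p = 0.0013, edgeR), and over the 10 fits that each left out 1 library the adjusted p from edgeR ran from 0.0013 to 0.0573.

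The difference in *Psat1* was also seen without the libraries that stood apart. Replicates 2, 4 and 5 alone were at 206 ± 119 CPM (SD, n = 3), and without replicates 1 and 3 the log2 fold change was 2.76 (SE 0.41, adjusted p = 0.0410, edgeR). Within the Fh1-/- libraries at day 10, *Psat1* was lowest in replicate 2, which also had the lowest injury marker sum, then came replicates 4 and 5, and it was highest in replicates 1 and 3, which had the highest injury marker sums. Among the 5 markers, *Spp1*, *Lcn2* and *Sox9* each had this order. *Krt20* and *Havcr1* did not, being lowest in replicate 5 (4.63 and 3.78 CPM) and highest in replicates 1 and 3. The part of tubular injury in the *Psat1* level was not tested. Summed Y-linked transcripts were at 1.03 CPM or less in Fh1-/- replicates 1, 3 and 5 and in Fh1+/+ replicates 2 and 3 at day 10, and with their level as a covariate the log2 fold change of *Psat1* was 3.12 (adjusted p = 0.0120, edgeR).

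**Figure D2:**
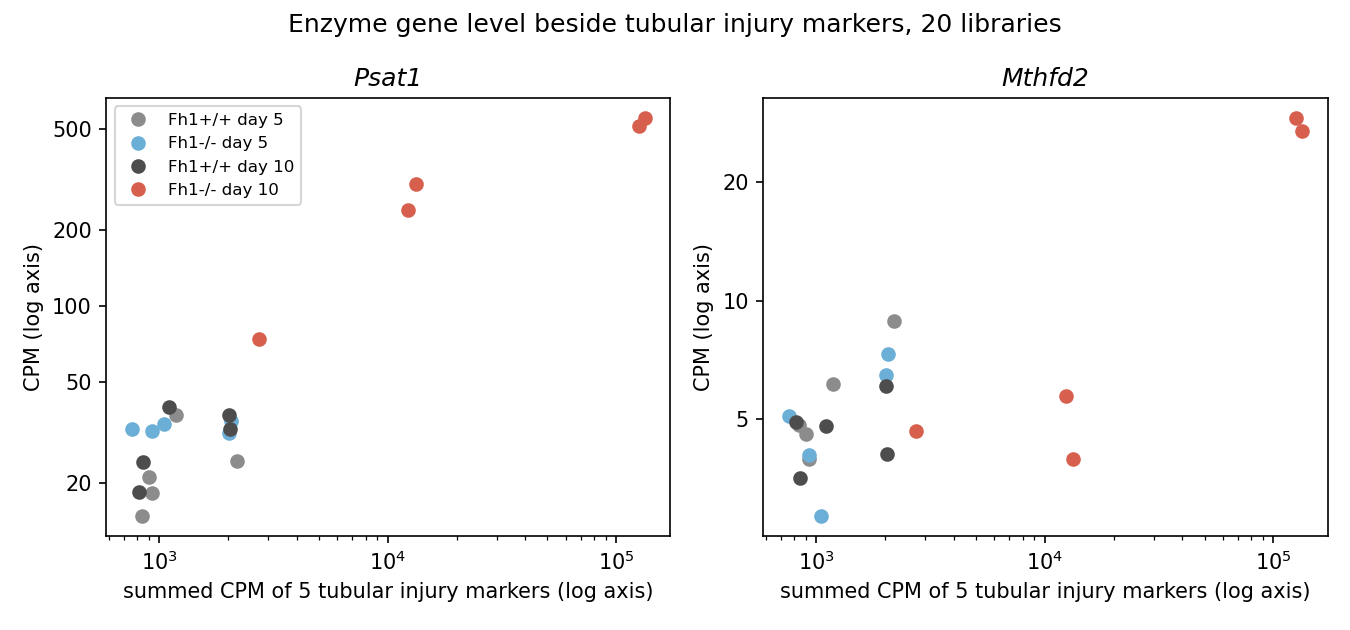
Level of *Psat1* and *Mthfd2* (CPM, log axes) against the summed level of 5 tubular injury markers (*Havcr1*, *Lcn2*, *Krt20*, *Spp1*, *Sox9*), 1 point per library and 5 per group. In the Fh1-/- day 10 libraries *Psat1* was at 73.7 CPM beside an injury sum of 2721, at 240.5 and 304.8 beside 12320 and 13310, and at 555.3 and 515.4 beside 133300 and 126100, while *Mthfd2* was near the controls in the first 3 of these. Most of each sum was *Spp1*.

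*Phgdh* (chromosome 3, 98313170 to 98339990, minus strand) encodes phosphoglycerate dehydrogenase, the first enzyme of the pathway. The Fh1-/- libraries of day 10 held 1.35, 1.69, 2.49, 0.785 and 1.48 CPM, which is 14 to 35 counts per library. The controls were at 1.95, 7.86, 2.43, 8.08 and 2.35 CPM, or 38 to 170 counts. Replicates 1, 2, 4 and 5 were below the lowest control and replicate 3 lay inside the control range. Fitted, the log2 fold change was -1.55 (SE 0.49, adjusted p = 0.0911, edgeR), and -1.77 without replicates 1 and 3 (adjusted p = 0.1721, edgeR). The controls themselves spread widely, with replicates 2 and 4 high, and a pseudogene named after *Phgdh* is annotated in the genome and could share reads. Control replicates 2 and 4 also had the highest collecting duct marker sums of the day 10 controls (1038 and 1177 CPM, against 735.8 to 912.6 CPM). Of the 6 markers summed, *Aqp2* and *Fxyd4* were highest in these replicates, whereas *Aqp3*, *Hsd11b2*, *Atp6v1g3* and *Slc4a1* did not have this order. Fh1-/- replicate 5 had a sum of 1506 CPM with *Phgdh* at 1.48 CPM. Most of that sum was *Aqp2* (870.2 CPM), and its *Fxyd4* (22.1 CPM) was below every day 10 control (28.1 to 69.4 CPM). The part of the make-up of the kidney piece in the *Phgdh* level was not tested. The ratio of *Psat1* to *Phgdh* CPM, given as a description, had a median of 207 in Fh1-/- kidneys at day 10 (43.7 to 412) and of 7.83 in the controls (4.74 to 13.4).

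*Psph* (chromosome 5, 129765558 to 129787449, minus strand), the phosphatase of the last step, was at 12.8, 12.6, 12.2, 10.3 and 10.5 CPM in Fh1-/- and at 14.0, 13.9, 14.8, 14.4 and 12.5 CPM in Fh1+/+ kidneys at day 10. All 5 Fh1-/- values were below the control mean and 3 were below the lowest control. The difference was small, with a log2 fold change of -0.27 (SE 0.12, 95% interval -0.52 to -0.0099, adjusted p = 0.1738, edgeR).

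*Shmt2* (chromosome 10, 127517123 to 127522444, minus strand) moves the carbon from serine onto folate in mitochondria. It was at 166.2, 224.5, 198.8, 174.1 and 180.4 CPM in Fh1-/- and at 277.2, 169, 188.1, 236.3 and 337.2 CPM in Fh1+/+ kidneys. The groups overlapped, although every Fh1-/- library was below the control mean. *Shmt2* was lower in control libraries almost without Y-linked transcripts (169 and 188.1 CPM) than in the other controls (236.3 to 337.2 CPM). The Fh1-/- libraries almost without them were at 166.2, 198.8 and 180.4 CPM, and the others at 224.5 and 174.1 CPM. The genotypes were thus not balanced in this. By edgeR the log2 fold change was -0.37 (SE 0.19, 95% interval -0.80 to 0.053, adjusted p = 0.2313, edgeR), an interval that leaves out a rise of the size seen in *Psat1*. With the level of Y-linked transcripts as a covariate the log2 fold change of *Shmt2* was -0.27 (adjusted p = 0.2949, edgeR).

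*Mthfd2* (chromosome 6, 83305691 to 83325908, minus strand), the mitochondrial methylene-folate dehydrogenase, was at 27.0, 4.67, 29.1, 5.72 and 3.96 CPM in Fh1-/- kidneys at day 10. The controls were at 3.53, 6.06, 4.09, 4.81 and 4.91 CPM. Replicates 1 and 3 were 5.76 and 6.23 times the control mean and the other 3 lay inside the control range. A log2 fold change of 1.57 (SE 0.58, adjusted p = 0.1264, edgeR) became 0.026 without replicates 1 and 3 (adjusted p = 0.9639, edgeR).

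*Mthfd1l* (chromosome 10, 3973118 to 4167081, plus strand), which releases formate, was at 18.3, 4.16, 22.3, 2.52 and 2.97 CPM against 1.90, 2.54, 2.54, 1.93 and 1.51 CPM in the controls. All Fh1-/- libraries but replicate 4 were above every control, and replicate 4 lay within the control range. In the fit of all 10 libraries the log2 fold change was 2.25 (SE 0.63, adjusted p = 0.0732, edgeR). Without replicates 1 and 3 it was 0.62 (SE 0.27, adjusted p = 0.2494, edgeR), so a smaller difference of the same sign was left in this gene, short of the threshold.

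*Asns* (chromosome 6, 7675169 to 7693254, minus strand) was at 39.7, 7.20, 36.8, 5.49 and 7.42 CPM in Fh1-/- kidneys at day 10 and at 5.99, 6.34, 6.68, 8.99 and 7.59 CPM in the controls. Replicates 1 and 3 were 5.57 and 5.16 times the control mean, and the remaining libraries were between 0.772 and 1.04 times. A log2 fold change of 1.43 (SE 0.56, adjusted p = 0.1448, edgeR) turned to -0.084 without replicates 1 and 3 (adjusted p = 0.8421, edgeR). Its composite element at 23 bases before the start is shown above in capitals.

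*Aldh18a1* (chromosome 19, 40550257 to 40588463, minus strand), the enzyme that commits glutamate to proline, was at 14.0, 3.83, 11.4, 2.36 and 3.37 CPM against 3.48, 5.41, 4.53, 5.30 and 4.08 CPM in the controls. Replicates 1 and 3 were above every control, 2 libraries were below every control, and replicate 2 lay between. The log2 fold change was 0.60 (SE 0.47, 95% interval -0.44 to 1.63, adjusted p = 0.4128, edgeR), and it was -0.52 without replicates 1 and 3 (adjusted p = 0.2780, edgeR).

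*Pycr1* (chromosome 11, 120635712 to 120643769, minus strand), the mitochondrial reductase of the last proline step, was scarcely read. Over the 20 libraries it had between 2 and 14 counts, or 0.112 to 0.788 CPM, and the genotypes overlapped on both days. The filter removed it within each day, and with no filter the log2 fold change at day 10 was 0.056 (SE 0.56, edgeR). A difference in *Pycr1* that is small against this error was not detectable at this depth.

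**Figure D3:**
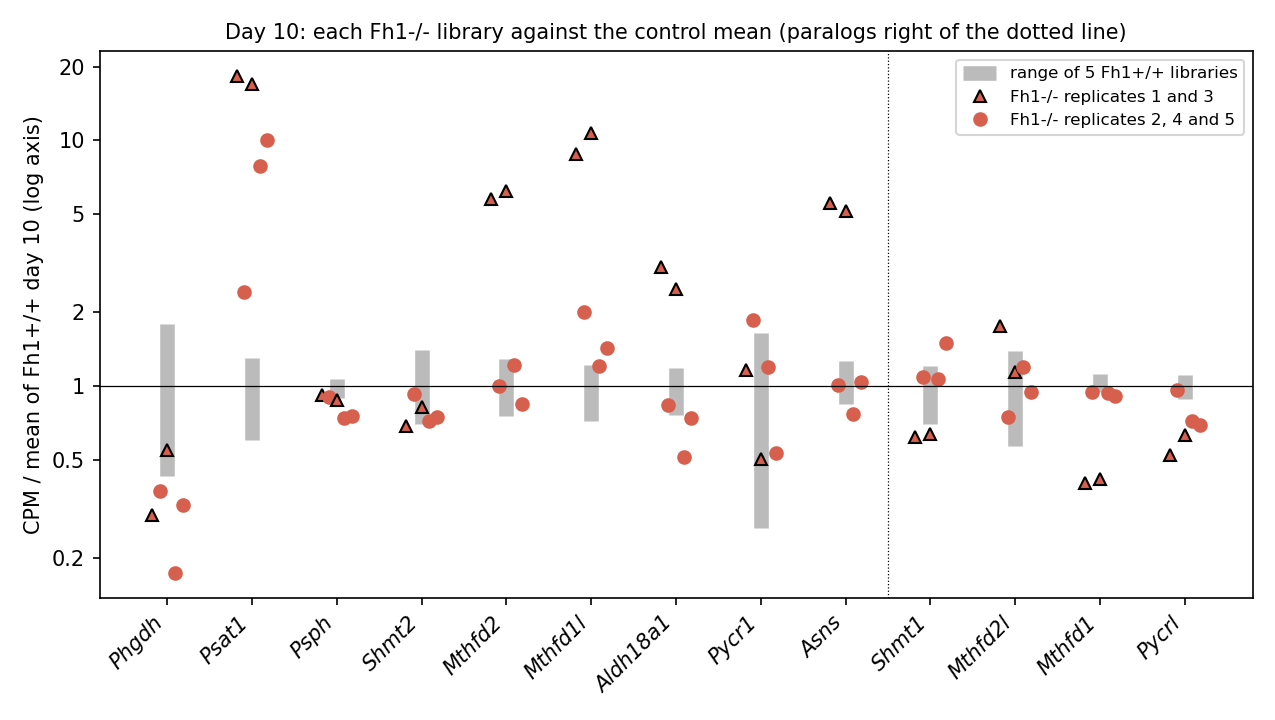
Level of each member and of 4 paralogs in the 5 Fh1-/- libraries at day 10, divided by the mean of the 5 Fh1+/+ libraries (log axis). Grey bars are the range of the controls and triangles are replicates 1 and 3. *Psat1* lay between 2.42 and 18.2 times the control mean in all 5 libraries, and *Mthfd2*, *Mthfd1l* and *Asns* reached 5.16 to 10.7 times in the triangles, against 0.772 to 2.00 times in the other libraries.

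At day 5 the enzymes were close to the controls. None of 8 tested members passed with edgeR, beside 0.0208% of 14404 genes upwards and 0.0139% downwards, and DESeq2 called none of them either, beside 0.0783% of genes upwards and 0.0991% downwards. At an unadjusted p under 0.05, 1 member was higher, beside 2.42% of all genes, and none was lower, beside 2.37%. That member was *Psat1*. It was at 34.2, 35.1, 32.7, 32.0 and 31.5 CPM in Fh1-/- kidneys and at 24.4, 18.2, 37.0, 21.1 and 14.8 CPM in the controls. All 5 Fh1-/- libraries lay above the control mean, by 1.36 to 1.52 times, and were closely spaced, but control replicate 3 was higher still. The log2 fold change was 0.51 (SE 0.20, 95% interval 0.069 to 0.95, adjusted p = 1, edgeR). For the other 7 tested members it lay between -0.26 for *Phgdh* (95% interval -1.03 to 0.51) and 0.026 for *Shmt2* (-0.34 to 0.40). For every tested member but *Psph* the interval was narrower than at day 10.

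The genotype differences at day 10 and day 5 were compared by their interaction over all 20 libraries. *Psat1* had the lowest p among the members, with a difference of 2.94 on the log2 scale (SE 0.53, adjusted p = 0.0208, edgeR), within 0.05, as 0.75% of genes were upwards, but short of the study's threshold. *Mthfd1l* followed with 2.36 (SE 0.70, adjusted p = 0.0933, edgeR). None of the 9 members passed, beside 0.0268% of 14934 genes in the upward and 0.0067% in the downward direction. At an unadjusted p under 0.05, 4 members were above 0 and 1 below, beside 11.8% and 8.4% of all genes, namely *Psat1*, *Mthfd1l*, *Asns* and *Mthfd2* above and *Phgdh* below. DESeq2 called *Psat1*, beside 1.32% of genes upwards and 0.487% downwards. Without Fh1-/- day 10 replicate 2 the difference in *Psat1* was 3.20 (adjusted p = 0.0003, edgeR), and without replicates 1 and 3 it was 2.24 (adjusted p = 0.0582, edgeR).

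Between day 5 and day 10 in Fh1-/- kidneys, *Psat1* rose, by 3.33 on the log2 scale (SE 0.45, adjusted p = 0.0072, edgeR), with every day 10 library above every day 5 library, as in 6.83% of genes. It was the only one of 8 tested members to pass, beside 0.337% of 14235 genes upwards and 0.239% downwards. At an unadjusted p under 0.05, 4 members were higher and 3 lower, beside 17.9% and 14.4% of genes, and DESeq2 called 3, *Psat1* and *Mthfd1l* up and *Phgdh* down, beside 5.14% and 3.49%. The edgeR call was kept only without Fh1-/- day 10 replicate 2. Leaving out any of the other 9 libraries gave 3.08 to 3.44 with an adjusted p of 0.0133 to 0.0327 (edgeR), and leaving out replicates 1 and 3 gave 2.61 (adjusted p = 0.0113, edgeR). These fits share the Fh1-/- day 10 libraries with the comparison of the genotypes. *Phgdh* differed by -1.04 (SE 0.29, adjusted p = 0.0455, edgeR), and *Psph* by -0.28 (adjusted p = 0.1391, edgeR), its day 10 libraries all being below those of day 5, as in 5.68% of genes. In Fh1+/+ kidneys none of 8 members, and none of 14501 genes, passed between the days with edgeR or DESeq2, and 0 members did at an unadjusted p under 0.05, beside 1.99% of genes upwards and 1.98% downwards. There *Psat1* differed by 0.40 on the log2 scale (SE 0.26, adjusted p = 0.9485, edgeR).

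**Figure D4:**
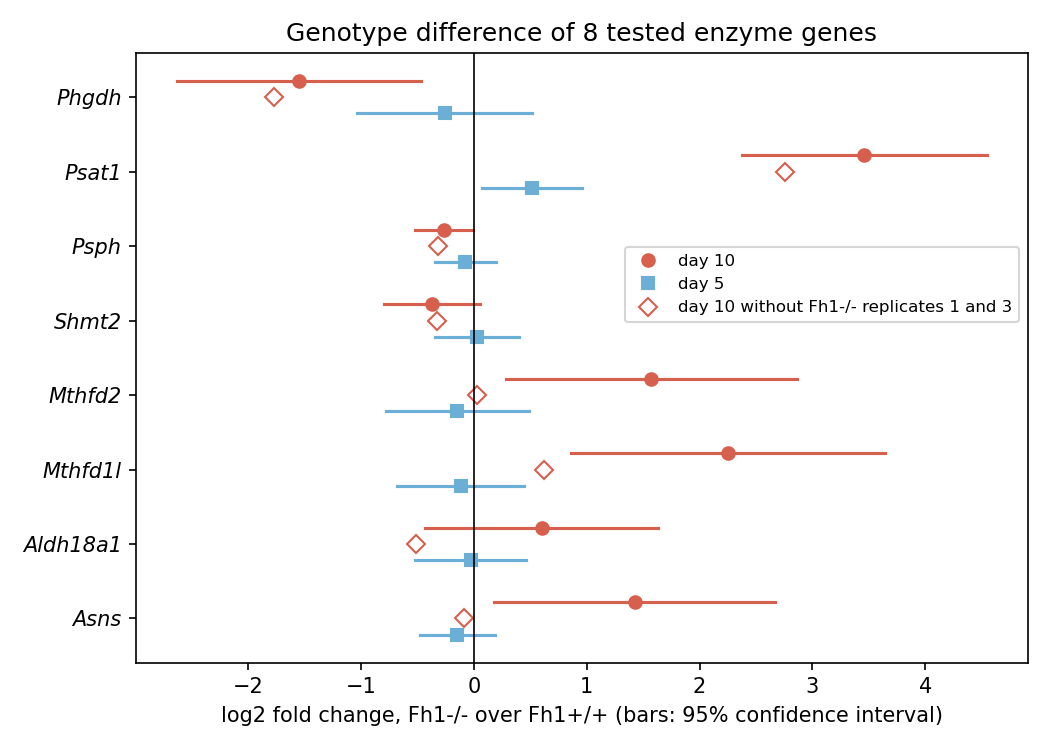
Log2 fold change between Fh1-/- and Fh1+/+ kidneys (edgeR) with its 95% confidence interval, for the 8 members tested, at day 10 (circles), at day 5 (squares), and at day 10 without Fh1-/- replicates 1 and 3 (open diamonds). The open diamond of *Psat1* stays at 2.76, while those of *Mthfd2* and *Asns* lie at 0.026 and -0.084.

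Several members have a paralog in another compartment or an isoenzyme, and the pairs were compared by their ratio within each library. Pairs were compared on both days by an exact two-sided permutation test of log2 CPM ratios (0.5 CPM added), with p adjusted over the 10 tests run, 8 of which are given here. Their smallest possible p with 5 against 5 libraries is 0.00794. None of the 8 passed 0.05 after adjustment. *Mthfd1l* against *Mthfd1*, its cytosolic relative, came closest. At day 10 its log2 ratio was -4.85 ± 2.03 in Fh1-/- and -6.95 ± 0.304 in Fh1+/+ kidneys (SD, n = 5). The difference of 2.09 had the smallest p the design allows (exact permutation p = 0.00794, adjusted p = 0.0794), with every Fh1-/- library above every control. The separation was narrow, from -6.609 in Fh1-/- replicate 4 (45 *Mthfd1l* counts) to -6.620 in control replicate 3 (46 counts). *Mthfd1* was at 126.6, 297.2, 131.2, 294.5 and 286.6 CPM in Fh1-/- kidneys, all below the lowest control (298.6 CPM), as in 3.43% of genes, and the edgeR log2 fold change was -0.49 (adjusted p = 0.2406, edgeR). Without replicates 1 and 3 the difference in the ratio was 0.62 (exact permutation p = 0.0357, the smallest that 3 against 5 allow).

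The other pairs differed less. For *Mthfd2* against *Mthfd2l*, another mitochondrial isoenzyme, the difference at day 10 was 0.84 (exact permutation p = 0.1667, adjusted p = 0.5556), and *Mthfd2l* was low in both genotypes (1.64 to 5.03 CPM). For *Shmt2* against cytosolic *Shmt1* it was -0.24 (exact permutation p = 0.5556, adjusted p = 0.8333). For *Pycr1* against *Pycrl*, another pyrroline reductase, it was 0.57 (exact permutation p = 0.0556, adjusted p = 0.2778), a ratio that rests on 2 to 14 *Pycr1* counts. *Pycrl* was lower in Fh1-/- by point estimate (-0.52, adjusted p = 0.0804, edgeR). At day 5 the differences lay between -0.31 and 0.048, with exact permutation p from 0.4444 to 0.8333.

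Other genes of these pathways were counted from lists. Of 16 further serine and glycine genes 13 were tested at day 10, none passed with edgeR, and at an unadjusted p under 0.05 there were 1 higher and 5 lower (median log2 fold change -0.22), beside 15.1% and 11.9% of all genes. The gene above 0 was *Gldc*, which encodes the decarboxylase of the glycine cleavage system, at 811.4, 385.8, 835, 506.3 and 738.3 CPM in Fh1-/- and 41.9 to 458.2 CPM in Fh1+/+ kidneys (a difference of 2.01 on the log2 scale, SE 0.59, adjusted p = 0.0802, edgeR). All but replicate 2 were above every control. The controls almost without Y-linked transcripts, replicates 2 and 3, were at 148.7 and 458.2 CPM and the other controls at 41.9 to 93.7 CPM. Fh1-/- libraries almost without them were at 811.4, 835 and 738.3 CPM, and the others at 385.8 and 506.3 CPM. The genotypes were not balanced in these transcripts at day 10. *Gatm*, which uses glycine for creatine synthesis and is a proximal tubule gene, was at -2.01 (adjusted p = 0.1098, edgeR), and *Amt*, another glycine cleavage component, at -0.54 (adjusted p = 0.0882, edgeR). At day 5, 2 of the 13 were higher at an unadjusted p under 0.05, beside 2.42% of all genes, and none passed with edgeR, and *Gldc* was again above 0 (1.13, adjusted p = 0.9417, edgeR). On that day, too, *Gldc* was highest in the libraries almost without Y-linked transcripts. These were Fh1-/- replicates 2 and 5 (374.7 and 212.9 CPM) and Fh1+/+ replicate 1 (186 CPM), so the groups were not balanced in this.

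Of 30 other folate and methyl cycle genes, none passed at day 10 with edgeR (unadjusted p under 0.05 for 2 above and 4 below 0, beside 15.1% and 11.9% of all genes), and the median log2 fold change was -0.073. The 2 higher genes were *Slc19a1*, the reduced folate carrier, and *Aldh1l1*, which oxidizes formyl-folate in the cytosol. *Slc19a1* was at 219.9, 148.5, 265.8, 170.1 and 195.3 CPM against 83.2 to 125.7 CPM (log2 fold change 0.90, adjusted p = 0.0376, edgeR). *Aldh1l1* was at 1136, 898.6, 1247, 1213 and 1562 CPM against 665.6 to 840.6 CPM (0.67, adjusted p = 0.0556, edgeR). Neither overlapped the controls, as in 4.42% of genes in this direction. At day 5, 1 of the 30 was higher at an unadjusted p under 0.05, against 2.42% of all genes, namely *Cth*, a transsulfuration enzyme (0.65, adjusted p = 1, edgeR).

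The 16 other proline, glutamate and asparagine genes had 13 above 0 at day 10 (49.9% of all genes were) and a median log2 fold change of 0.43, and none passed with edgeR. At an unadjusted p under 0.05, 7 were higher and 1 lower, where 15.1% and 11.9% of all genes were. *Glud1*, glutamate dehydrogenase, was at 2138, 694.2, 2041, 1658 and 1557 CPM against 430 to 704 CPM (log2 fold change 1.55, SE 0.28, adjusted p = 0.0317, edgeR). *Got1*, the cytosolic aspartate aminotransferase, was at 0.68 (adjusted p = 0.0496, edgeR), with all 5 Fh1-/- libraries above the controls, again as in 4.42% of genes. Between the days in Fh1-/- kidneys 1 of the 16 passed, *Gpt*, an alanine aminotransferase (1.53, adjusted p = 0.0076, edgeR), which is named because it was the single call. At day 5 all 16 were above 0 (47.7% of all genes were), with a smaller median log2 fold change of 0.11, and none was past an unadjusted p under 0.05 with edgeR.

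ATF4 and its stress response partners were read beside the members, since these are the genes by which the members are known as a group. All 7 were above 0 at day 10 (49.9% of all genes were) and 6 were higher at an unadjusted p under 0.05 (15.1% of all genes), with 0 calls by edgeR. The log2 fold change was 0.83 for *Atf4* (adjusted p = 0.0640), 2.41 for *Trib3* (adjusted p = 0.0683) and 2.82 for *Chac1* (adjusted p = 0.0624, edgeR). Their libraries did not run alike. *Trib3* was 10.0 and 12.0 times the control mean in replicates 1 and 3 and 1.36 to 1.89 times in the other libraries. *Chac1* was highest in replicates 4 and 5, at 18.3 and 8.41 times, then came replicates 1 and 3 at 4.68 and 4.14 times, and replicate 2 at 0.43 times was below every control. *Atf4* was at 2.38 and 2.43 times in replicates 1 and 3 and 1.08 to 1.67 times in the rest. At day 5, 2 of the 7 were above 0 (47.7% of all genes were) and 1 was higher at an unadjusted p under 0.05 (2.42% of all genes). *Myc*, a transcription factor that binds E-boxes, was at 2.72 (adjusted p = 0.0351, edgeR) and above every control in all 5 Fh1-/- libraries, by 2.43 to 13.03 times their mean, a separation seen in 4.42% of genes.

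How far the members varied together apart from replicates 1 and 3 was described over the other 18 libraries. Pairwise Pearson correlations of log2 CPM ran from -0.664 for *Psat1* with *Psph* to 0.726 for *Phgdh* with *Aldh18a1*, so the measured levels did not move as a block there. Low counts, as in *Pycr1* (2 to 14 per library) and *Mthfd1l* (27 to 74), can weaken such correlations. The libraries share genotype and day groups, and no test was made. Among the 8 non-member genes most like the mean of the members, out of 13694 with a mean of 1 CPM or more, were *Rab15* (Pearson's r = 0.88 over 18 libraries), *Scd2* (0.828), *Itgb4* (0.824), *Fam167a* (0.817), *Vtcn1* (0.814), *Aif1l* (0.813) and *Capn5* (0.804).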

How the data were processed

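Kidney RNA was sequenced from 20 libraries, 5 in each of 4 groups of genotype and day. Per the study's methods, the authors made stranded polyA libraries, mapped reads with STAR 2.6.0c to GRCm38, removed adapters and reads of low mapping quality with Cutadapt and counted reads per gene with Rsubread and GENCODE models. The deposited values are raw counts per gene symbol, not normalized or pooled. Totals were 16654829 to 25001294 counts per library. No replicate pair agreed within sampling noise (chi-square per degree of freedom 7.49 to 373 over 40 pairs).

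From the counts, edgeR 4.0.16 in R 4.3.3 (TMM, filterByExpr, glmQLFit, glmQLFTest, Benjamini-Hochberg adjustment over all genes tested) was run on the 10 libraries of each comparison, and on all 20 for the difference between days. A gene rose or fell where the adjusted p was under 0.01 and the absolute log2 fold change over 0.58, the study's thresholds. Its DESeq2 test was run as an alternative (version 1.42.0), because quasi-likelihood was taken as the main count test. Positions and exon lengths came from GENCODE vM21 and promoters from RefSeq. Protein sequences were not analysed here. Replicate numbers did not pair the libraries (correlation of same-numbered deviations -0.514 to 0.329).

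Tested on simulated counts for day 10 (14360 genes), edgeR recovered 20.9% of genes changed 2-fold and 77.3% of genes changed 4-fold with 0 false calls. DESeq2 recovered 55.2% and 89.4% with 10 false calls. Genes were drawn independently, and no simulated library stood apart as Fh1-/- day 10 replicates 1 and 3 did. These figures may therefore not hold for the measured day 10 libraries. The members and gene lists were chosen with earlier results of these data known. The genes named were all members, paralogs, *Fh1*, *Myc*, up to 4 called or 3 other genes by p per list, with the stress list kept short, and the 8 genes most like the members. Some genes these rules name are not reported here. Alternatives to these choices were DESeq2, RLE normalization, no filter, or one of 1 CPM in 5 libraries, calls at an adjusted p under 0.05 whatever the fold, replicate number as a block, a covariate of Y-linked transcripts, limma-voom with sample weights (limma 3.58.1), all 20 libraries in 1 fit, a pseudocount of 0.1 CPM for ratios, leaving out each library, and leaving out Fh1-/- day 10 replicates 1 and 3, which earlier results had placed apart.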

Additional observations from a re-analysis of the deposited data

Results flagged for a closer look

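The genotype difference of *Psat1* was larger at day 10 than at day 5 by 2.94 on the log2 scale (standard error 0.53, adjusted p = 0.0208, edgeR's interaction term over all 20 libraries), past 0.05 but with this test not the study's 0.01. DESeq2, the study's test, called it. At day 10 all 5 Fh1-/- libraries (73.7 to 555.3 CPM) were above the control mean of 30.4 CPM, and at day 5 all 5 (31.5 to 35.1 CPM) were above that of 23.1 CPM. In the 36 groups of 5 libraries formed by the 9 genes, no single library was marked as an outlier (critical share of the range 0.71). The rule uses the gap between the most extreme library and the next, so it cannot mark libraries that stand apart together. Fh1-/- day 10 replicates 1 and 3 did so in *Asns*, at 39.7 and 36.8 CPM against 5.49 to 7.42 CPM in the rest of that group.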

How the results depend on the processing

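No member was called at day 10 by edgeR. DESeq2 and the fit of all 20 libraries each called 2 (*Psat1* and *Mthfd1l*), and an adjusted p under 0.05 called 1 (*Psat1*). For the difference between the days the main count was 0, and DESeq2, the adjusted p under 0.05 and the Y-linked covariate each called 1 (*Psat1*). Between the days in Fh1-/- kidneys the main count was 1, DESeq2 called 3, the adjusted p under 0.05 and the fit of all 20 libraries 2 each, and the replicate block and leaving out replicates 1 and 3 called 0. At day 5 and in Fh1+/+ kidneys the count was 0 in each alternative run. Leaving out 1 library gave 0 to 1 called members at day 10, 0 to 1 for the difference between the days and 0 to 1 between the days in Fh1-/- kidneys, the 1 each time without Fh1-/- day 10 replicate 2. With the replicate block *Psat1* was at 3.27 at day 10 (adjusted p = 0.0676, edgeR), and the block called 0 genes in all at day 10, beside 8 without it. *Psat1* stayed above 0 at both days under every alternative run.

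Some signs changed. *Aldh18a1* was at -0.39 (limma-voom) and -0.52 (without both) at day 10, at -0.31 and -0.49 for the difference between days, and at -0.33 and -0.66 between the days in Fh1-/- kidneys. Without both, *Asns* at day 10 was at -0.084 and *Mthfd2* between the days at -0.13. *Asns* between the days in Fh1+/+ kidneys was at 0.093 with limma-voom. The cause was not tested. Leaving out 1 library turned the sign of small values. At day 5 the ranges were -0.44 to 0.14 for *Phgdh*, -0.13 to 0.037 for *Psph*, -0.095 to 0.12 for *Shmt2*, -0.31 to 0.075 for *Mthfd2*, -0.26 to 0.021 for *Mthfd1l* and -0.15 to 0.091 for *Aldh18a1*. In Fh1+/+ kidneys between the days they were -0.037 to 0.67 for *Phgdh*, -0.13 to 0.043 for *Psph*, -0.25 to 0.0087 for *Shmt2* and -0.11 to 0.044 for *Asns*, and for *Pycr1* the difference between days ran from -0.54 to 0.0062. Of the ratios, those of *Shmt2* to *Shmt1* ran from -0.43 to 0.012 at day 10 and from -0.23 to 0.097 at day 5, *Pycr1* to *Pycrl* at day 5 from -0.061 to 0.15, and *Mthfd1l* to *Mthfd1* at day 5 from -0.22 to 0.037.

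Counts over all genes moved more. At day 10, edgeR called 8 genes, DESeq2 831, the fit of all 20 libraries 838, and the adjusted p under 0.05 called 406. With no filter there were 16, with 1 CPM in 5 libraries 3, with the Y-linked covariate 20, with limma-voom 15 and without both 2. At day 5 edgeR called 5 genes, DESeq2 34, the adjusted p under 0.05 9, the Y-linked covariate 8 and the replicate block 0. For the difference between days edgeR called 5, DESeq2 274, the adjusted p under 0.05 161, no filter 10, 1 CPM in 5 libraries 11, the block 2, the Y-linked covariate 92, limma-voom 9 and the fit without both 3. Between the days in Fh1-/- kidneys edgeR called 82, DESeq2 1334, the adjusted p under 0.05 1653, the fit of all 20 libraries 1294, the block 0, the Y-linked covariate 360, limma-voom 484 and the fit without both 21. Leaving out 1 library gave 0 to 235 called genes at day 10, 2 to 4 at day 5, 3 to 296 for the difference between days and 0 to 774 between the days in Fh1-/- kidneys. Except at day 5, the highest count came each time without Fh1-/- day 10 replicate 2.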
